A study of Mus musculus with 2 samples.

Results

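High-mobility group (HMG) proteins are abundant, non-histone proteins that bind DNA or nucleosomes and change how tightly chromatin is folded. The 9 genes described here were chosen by name to cover the 3 classical families. They comprise Hmga1 and Hmga2, the AT-hook genes, then Hmgb1, Hmgb2 and Hmgb3, the HMG-box genes, and Hmgn1, Hmgn2, Hmgn3 and Hmgn5, the nucleosome-binding genes. The rule uses no measured value, although earlier results of these data were known when it was set. All 9 had a row at both ages, among 22687 genes with a symbol in the P6 library, 21736 in the P15 library and 19813 in both.

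The study isolated endothelial cells from the retinas of wild-type C57BL/6 mice at postnatal day 6 (P6) and postnatal day 15 (P15), sorted them as CD31+CD45- cells and sequenced them by droplet-based single-cell RNA sequencing. No treatment of these wild-type mice is named by the study, and age was the labelled difference. Each age was 1 library, the number of animals behind it was not stated, and age and library cannot be told apart. Cluster names are the study's own (Arterial, Cap-Arterial, Capillary, Cap-Venous, Venous, Tip, Stalk, Primitive and Proliferative) and were held for 1560 P6 cells and 438 P15 cells. The 438 are only the beginning of the P15 list of cells.

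HMGA proteins grip the minor groove of AT-rich DNA through short AT-hook motifs. HMGB proteins carry a pair of HMG boxes and an acidic tail, bend DNA sharply and loosen its wrapping on nucleosomes, and Hmgb1 also acts outside the cell as an alarm signal. HMGN proteins bind the nucleosome core itself and compete with the linker histone H1. In many tissues HMGA and HMGB2 are known from dividing or immature cells, and the growing retinal vessel network of the first postnatal weeks contains dividing endothelial cells.

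The P6 library held 1984 barcodes and 13958124 unique molecular identifiers (UMIs, each 1 captured transcript molecule), with a median of 5543.5 UMIs per barcode. The P15 library held 2141 barcodes and 11589641 UMIs, with a median of 4616, and 7 barcode sequences were shared between the libraries. The study's exclusion criteria, as applied here, left 1424 P6 and 1644 P15 cells. They kept 1399 of the 1560 labelled P6 cells and 409 of the 438 labelled P15 cells, so the study's own set of cells was not recovered exactly. The 6 endothelial markers (Pecam1, Cdh5, Kdr, Tie1, Cldn5, Erg) summed to 7175 CPM in labelled P6 cells and 12120.4 CPM in labelled P15 cells. All labelled cells had a UMI of at least 1 of them, but so did 97.2% of unlabelled P6 and 99.5% of unlabelled P15 barcodes, so that share does not tell them apart. Pecam1 alone had a UMI in 90.8% of labelled P6 and 92.5% of labelled P15 cells. Transcripts of other retinal cells were more frequent at P15. The 6 rod photoreceptor markers had a UMI in 8.72% of labelled P6 cells and 24.0% of labelled P15 cells, and the 5 red cell markers in 12.8% and 57.3%. Pericyte markers (5 genes) were in 2.95% and 27.2%, glial markers in 1.28% and 16.4%, and leukocyte markers in 0.385% and 2.28%.

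All 9 are protein-coding genes in the GENCODE annotation of GRCm38. The HMGA genes lie at chr17:27556497-27563674 on the plus strand (Hmga1) and chr10:120361275-120476469 on the minus strand (Hmga2). Hmgb1 spans chr5:149046702-149184489 (minus), Hmgb2 spans chr8:57511907-57515999 (plus) and Hmgb3 spans chrX:71555918-71560676 (plus). Hmgn1 spans chr16:96120618-96127729, Hmgn2 chr4:133964738-133968650, Hmgn3 chr9:83109948-83146685 and Hmgn5 chrX:109004534-109013404, all on the minus strand. Hmgb3 and Hmgn5 are therefore both X-linked.

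The upstream sequences of the 3 HMGB genes are shown because their levels are compared most closely below. Each run is in the direction of transcription and ends at the base before the RefSeq start (GRCm38.p6). Capitals mark CCAAT, the box that the factor NF-Y is known to bind, and TTTGAA, a form of the cell cycle homology element of late cell cycle promoters, with TTCAAA being its reverse complement. For Hmgb1 the farthest stretch of the window is left out because it overlaps an exon of another Hmgb1 transcript.
Hmgb2 (chr8:57511593-57511842, plus strand): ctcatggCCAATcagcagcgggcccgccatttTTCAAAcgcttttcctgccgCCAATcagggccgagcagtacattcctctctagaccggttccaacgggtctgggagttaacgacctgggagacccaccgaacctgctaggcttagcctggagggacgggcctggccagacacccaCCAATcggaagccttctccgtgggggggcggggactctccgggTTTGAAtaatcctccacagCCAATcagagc
Hmgb1 (chr5:149053058-149053257, minus strand): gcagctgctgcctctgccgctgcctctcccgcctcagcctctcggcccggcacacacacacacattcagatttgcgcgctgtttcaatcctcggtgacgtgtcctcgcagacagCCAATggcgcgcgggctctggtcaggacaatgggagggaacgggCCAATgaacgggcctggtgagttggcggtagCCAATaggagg
Hmgb3 (chrX:71555667-71555916, plus strand): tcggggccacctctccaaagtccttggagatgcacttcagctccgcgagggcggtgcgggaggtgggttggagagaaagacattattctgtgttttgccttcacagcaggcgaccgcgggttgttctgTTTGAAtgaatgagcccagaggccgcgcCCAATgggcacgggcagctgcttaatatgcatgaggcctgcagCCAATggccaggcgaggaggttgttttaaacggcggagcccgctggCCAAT

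The motif search read both strands of the 250 bases before each start, and 8 of the 9 genes matched the RefSeq table with 10 windows. Hmgn3 had no entry. Hmgb2 held 4 CCAAT boxes, at 243, 198, 73 and 11 bases before its start, and Hmgb3 held 3, at 94, 51 and 5 bases. Hmgb1 held 3 in the window shown, at 86, 42 and 11 bases, and 0 in a second window that belongs to another start. At least 1 CCAAT was found in 33.8% of the 32851 windows of all genes, at least 3 in 2.79% and at least 4 in 0.840%. Hmgn1 held 2, Hmgn5 held 2, and Hmgn2, Hmga1 and Hmga2 held 0. TTTGAA occurred in 16.0% of all windows and 2 or more times in 1.81%. Hmgb2 held 2, at 218 bases (reverse strand) and 30 bases before the start, Hmgb3 held 1 at 122 bases, and the other members held none. TTCGAA (in 1.34% of all windows) and the E2F-type motifs TTTGGCGC (0.417%) and TTTCCCGC (0.895%) were in no member's window. A match is a description of the letters and not evidence of binding.

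Levels are given as CPM, a gene's UMIs per 1000000 UMIs of the cells grouped together, and both levels and ratios carry a 95% interval for counting error alone. No replicate of either age existed, so no test was made. A gene was counted when it had at least 50 UMIs over both groups, and was called higher or lower when the ratio was at least 1.5-fold. The study named the clusters from these same cells, cell cycle genes included, so differences between clusters are description.

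The first comparison asked how the HMG genes differed between the Proliferative cluster and all other labelled cells at P6 (198 and 1362 cells). Hmgb2, Hmgn2, Hmgb3, Hmgb1, Hmga1 and Hmgn5 were higher in Proliferative cells, Hmgn1 lay just below the 1.5-fold limit, and Hmgn3, a nucleosome binder of the HMGN family, was level. That is 6 of 8 counted members higher and 0 lower, against 10.3% of all 9834 counted genes higher and 13.6% lower. The median ratio was 1.85 over the members and 0.968 over all counted genes.

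Among the HMG-box genes, Hmgb2 had the largest difference. It stood at 1917 CPM (1851 to 1984) in Proliferative cells and 415 CPM (401 to 429) in the others, a ratio of 4.62 (4.40 to 4.85). Hmgb1, the most widely expressed HMG-box gene, stood at 1139 CPM (1089 to 1192) against 611 CPM (594 to 628), a ratio of 1.87 (1.77 to 1.97). Hmgb3 stood at 269 CPM (245 to 295) against 135 CPM, a ratio of 2.002 (1.79 to 2.24). The 3 HMGB genes were thus all higher, and the interval of the Hmgb2 ratio lay above those of Hmgb1 and Hmgb3.

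Among the nucleosome-binding genes, the order was Hmgn2, Hmgn5, Hmgn1 and Hmgn3. Hmgn2 stood at 299 CPM against 126 CPM, a ratio of 2.37 (2.13 to 2.64). For the X-linked Hmgn5, which carries a long acidic tail, the levels were 116 and 65.8 CPM and the ratio 1.76 (1.49 to 2.08). Hmgn1 stood at 555 CPM against 384 CPM, a ratio of 1.44 (1.34 to 1.56) that became 1.57 when every cell was thinned to 3000 UMIs. Hmgn3 stood at 88.4 CPM (74.7 to 104) against 93.5 CPM, and the interval of its ratio included 1 (0.945, 0.787 to 1.13).

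The AT-hook genes were rare in these cells. Hmga1 gave 42 UMIs in Proliferative cells (25.1 CPM) and 109 in the others (13.7 CPM), a ratio of 1.83 (1.25 to 2.64). Hmga2 gave 1 and 3 UMIs and was not counted. Hmga1 shares sequence with a near-identical copy, Hmga1b, whose UMIs amounted to 36.2% of those of Hmga1 at P6 and 40.4% at P15. Adding them gave a Hmga1 ratio of 1.77. For Hmgb1, 10 listed copies amounted to 2.73% and 2.26% of its UMIs.

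**Figure D1:**
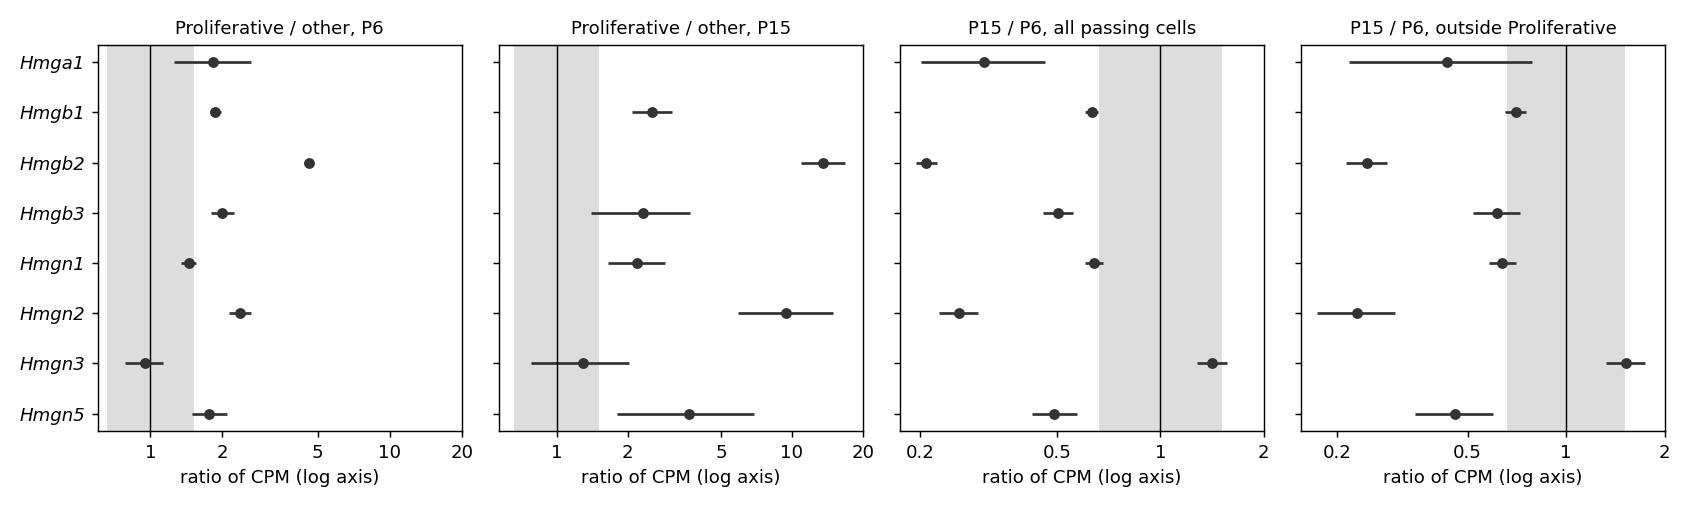
Ratio of CPM for each counted HMG gene, on a log axis, in the Proliferative and the P15 against P6 comparisons, with bars for the 95% counting interval. Hmgb2 sits farthest from 1 in Proliferative cells at both ages (4.62 at P6, 13.6 at P15), and Hmgn3 lies apart from the other members.

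At P15 the labels covered 14 Proliferative and 424 other cells. Again 6 of 7 counted members were at least 1.5-fold higher and 0 lower, against 14.6% of 5833 counted genes higher and 28.3% lower. The median ratio was 2.55 over the members and 0.926 over all counted genes. Hmgb2 stood at 1393 CPM (1180.1 to 1633) in Proliferative cells and 102 CPM (89.0 to 117) in the others, a ratio of 13.6 (10.96 to 16.8). Set beside P6, Hmgb2 was at 1393 and 1917 CPM in Proliferative cells and at 102 and 415 CPM in the others. Hmgn2 stood at 275 against 29.0 CPM, a ratio of 9.46 (5.89 to 14.9) on 30 and 59 UMIs.

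Hmgn5 (3.66, 1.79 to 6.87), Hmgb1 (2.55, 2.09 to 3.09), Hmgb3 (2.33, 1.40 to 3.67) and Hmgn1 (2.20, 1.65 to 2.89) were also higher in the P15 Proliferative cells. Hmgn3 was not counted as higher, at 183 against 142 CPM (1.29, 0.775 to 2.03). Hmga1 gave 1 and 12 UMIs. Hmga2 gave 0 UMIs in all 438 cells, which allows a level of up to 1.40 CPM (3 counts). Leaving out the 5% of cells with the most UMIs moved the Hmgb2 ratio to 22.9, and a minimum of 200 UMIs left 4 members, 3 of them higher.

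Depth differed with the cluster. The median was 7954.5 UMIs per Proliferative cell and 5093 per other labelled cell at P6, and 7570.5 and 4336.5 at P15. In cells thinned to 3000 UMIs, the median count of Hmgb2 was 6 UMIs (quartiles 3 and 8, highest 17) in 195 P6 Proliferative cells and 1 in 1197 other P6 cells. It was 3.5 in 12 P15 Proliferative cells and 0 in 309 other P15 cells, where no cell had more than 3. The highest count outside the Proliferative cluster at P6 was also 17, so the P6 distributions overlapped over their whole range.

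**Figure D2:**
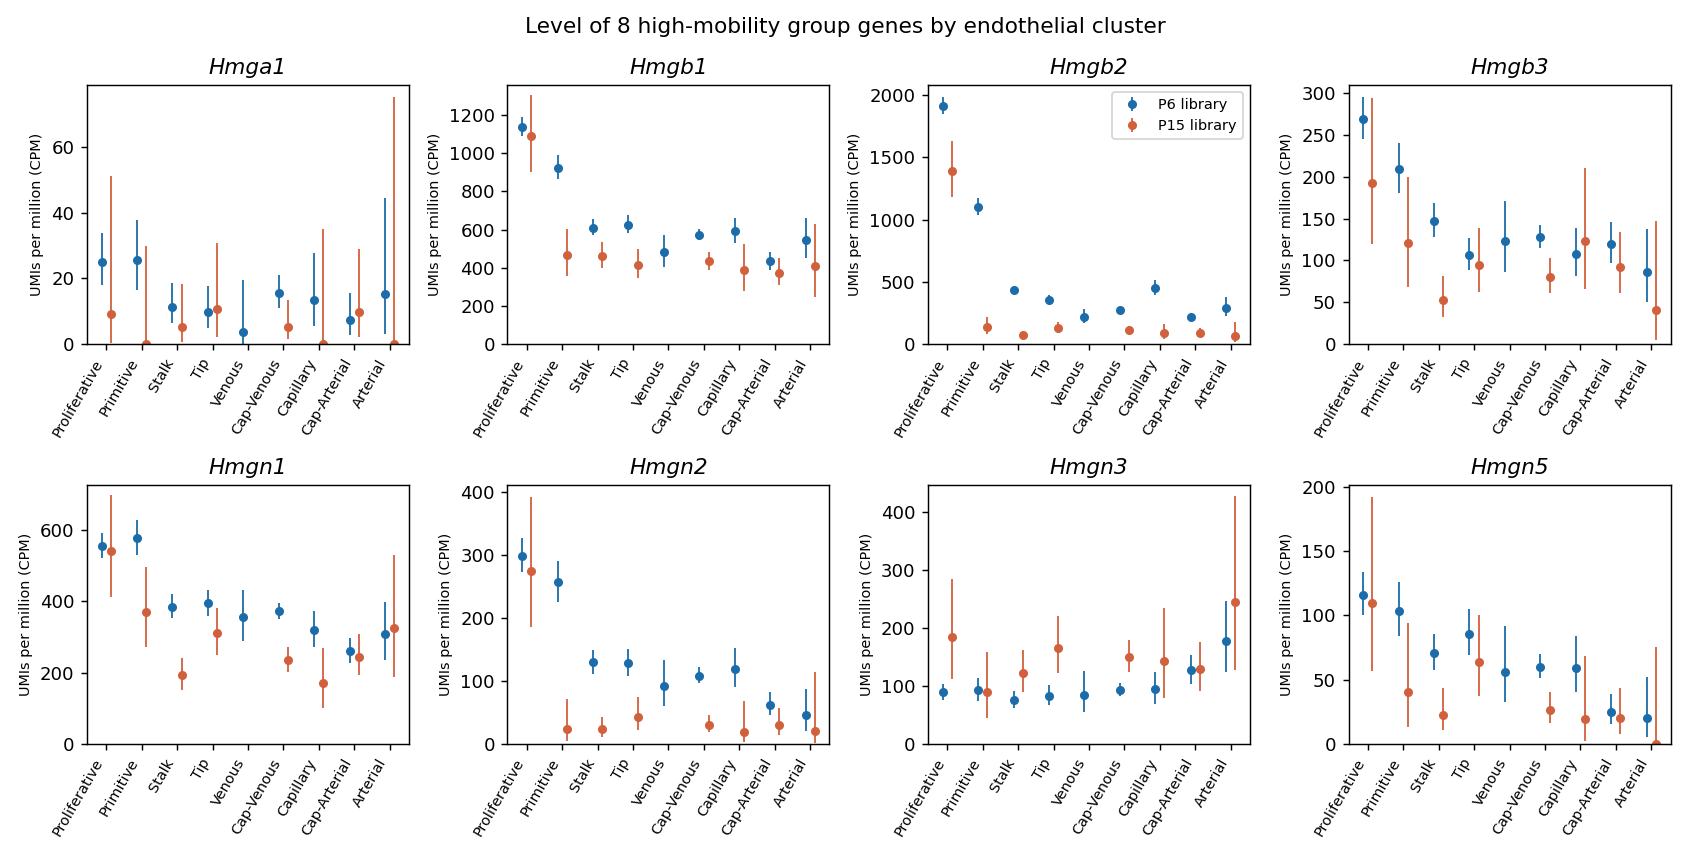
CPM of each HMG gene except Hmga2 (linear axis from 0) in the study's clusters at P6 and P15, with bars for the 95% Poisson interval. The P15 Venous cluster, with 2 labelled cells, is not drawn. At P6 Hmgb2 falls from 1917 CPM in Proliferative through 1104 in Primitive to 214 in Cap-Arterial cells, while Hmgn3 is highest in Arterial cells at 177.

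The Proliferative cells were 12.7% of labelled P6 cells and held 17.4% of their UMIs. They held 49.3% (48.0 to 50.5) of all Hmgb2 UMIs, 33.3% of Hmgn2, 29.6% of Hmgb3, 28.2% of Hmgb1, 27.8% of Hmga1, 27.0% of Hmgn5, 23.3% of Hmgn1 and 16.6% of Hmgn3. At P15 they were 3.20% of labelled cells with 5.10% of UMIs. Even so they held 42.2% (37.1 to 47.5) of Hmgb2 and 33.7% of Hmgn2 UMIs, but 6.47% to 16.4% for the other counted members.

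**Figure D3:**
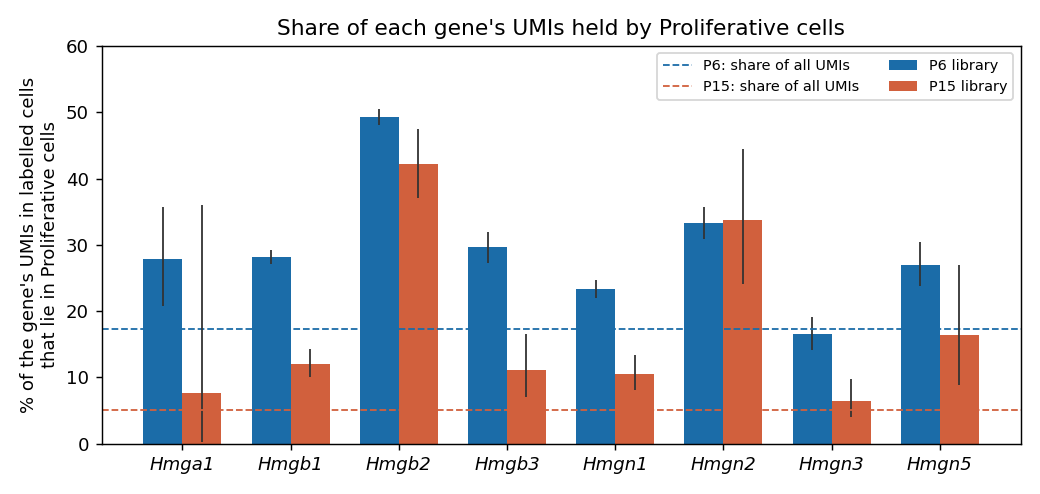
Percent of the UMIs of each HMG gene except Hmga2 among labelled cells that came from Proliferative cells at each age, beside the cells' share of all UMIs. Hmgb2 has the largest share at both ages (49.3% and 42.2%), and Hmgn3 stays close to the share of all UMIs.

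The second comparison asked which other clusters carried these transcripts at P6. The levels of Hmgb2 were ordered Proliferative (1917 CPM), Primitive (1104, 1038 to 1173), Capillary (453), Stalk (434), Tip (356), Arterial (294), Cap-Venous (272), Venous (218) and Cap-Arterial (214). Counting intervals were separate between Proliferative and Primitive, between Primitive and Capillary, and between Stalk and Tip, and overlapped between all other neighbours. They leave out the spread between cells, which was wider than counting error. In thinned cells the variance of Hmgb2 was 4.26 at a mean of 1.34 UMIs in Stalk and 1.90 at a mean of 0.968 in Tip. The Arterial level of Hmgb2 rested on 58 UMIs, with 20 of them in 1 cell. Hmgb1 and Hmgb3 shared the first 2 places, with 925 and 209 CPM in Primitive cells. After that their order was different, with Tip next for Hmgb1 (626 CPM) and Stalk next for Hmgb3 (147 CPM), and no neighbours were separate from there on. Cap-Arterial cells were lowest for Hmgb1 (433 CPM) and Arterial cells for Hmgb3 (86.0 CPM).

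Hmgn1 was level between Primitive (576 CPM) and Proliferative cells (555 CPM), both separate from Tip (394 CPM), and was lowest in Cap-Arterial cells (261 CPM). Hmgn2 did not separate Proliferative (299 CPM) from Primitive (257 CPM) either, and was lowest in Cap-Arterial (62.2 CPM) and Arterial cells (45.5 CPM). Hmgn5 had the same lowest pair, at 25.1 and 20.2 CPM. In the 40 Arterial cells these levels rested on 9 Hmgn2 and 4 Hmgn5 UMIs. Their intervals (20.8 to 86.5 and 5.52 to 51.8 CPM) overlapped those of Venous cells (59.7 to 134 and 32.1 to 91.3 CPM). Hmgn3 ran the other way. It was highest in Arterial (177 CPM, 123 to 246) and Cap-Arterial cells (127 CPM, 104 to 153), and lowest in Stalk cells (74.8 CPM, 61.2 to 90.5), with every pair of neighbours overlapping. At P15, leaving out the Venous cluster with its 2 labelled cells (3 Hmgn3 UMIs), Arterial cells had the highest level of Hmgn3 (244 CPM, 126 to 427), with an interval that overlapped that of the next cluster.

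The Primitive cluster came closest to Proliferative cells for most members. Against the other 7 clusters outside Proliferative at P6, 7 of 8 counted members were higher in the 155 Primitive cells and 0 lower, where 7.67% of 9346 counted genes were higher and 43.5% lower. The median ratio was 1.69 over the members and 0.738 over all counted genes. The ratio was 3.42 (3.18 to 3.68) for Hmgb2, 2.37 (2.04 to 2.74) for Hmgn2, 2.11 (1.28 to 3.35) for Hmga1 and 1.61 to 1.69 for Hmgb1, Hmgb3, Hmgn1 and Hmgn5. Hmgn3 was level at 0.986 (0.779 to 1.23). In the same comparison 5 of 6 endothelial markers were at least 1.5-fold lower in Primitive cells, with a median ratio of 0.549, and the part of this in the HMG ratios was not tested.

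Primitive cells also carried more transcripts of G2/M genes, a list of 52 genes linked to the G2 and M phases of the cell cycle that holds no HMG gene. Of its 41 counted genes 32 were higher and 4 lower in Primitive cells. Thinned cells were also grouped by their number of G2/M UMIs. These groups are wide and the last has no upper limit, so loads can still differ within a group. The load of S phase genes was not matched. The Hmgb2 ratio of Primitive to the other 7 clusters was 2.81 (2.21 to 3.55) at 0 to 5 UMIs, 1.72 (1.31 to 2.23) at 6 to 10 and 1.34 (1.15 to 1.55) above 10. For Hmgn2 it was 1.86 (1.19 to 2.80), 1.91 (1.17 to 3.07) and 1.70 (1.17 to 2.48). Hmgb1 had smaller ratios of 1.41, 1.24 and 1.24, and the middle interval included 1 (0.9502 to 1.59). Above 10 G2/M UMIs the intervals of Hmgb3 (0.916, 0.578 to 1.44), Hmgn1 (1.04, 0.808 to 1.34) and Hmgn5 (0.890, 0.511 to 1.53) included 1. At 0 to 5 UMIs those of the same 3 genes lay above 1, at 1.57, 1.38 and 2.19.

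The G2/M load gave a finer scale for the cells outside the Proliferative cluster. At P6 the thinned cells were grouped by 0, 1 to 2, 3 to 5, 6 to 10 or over 10 G2/M UMIs. Hmgb2 stood at 163, 192, 249.4, 579 and 1501 CPM in these 5 groups. Hmgb1 stood at 542, 508, 549, 703 and 1015 CPM, and Hmgn2 at 68.2, 87.1, 107, 180.2 and 265 CPM. The values of Hmgb2 and Hmgn2 were thus higher at each step, but not every step was separate. The Hmgb2 intervals at 0 (118 to 219) and at 1 to 2 UMIs (168 to 218) overlapped. Those of Hmgn2 overlapped up to 5 UMIs, and again between 6 to 10 (143 to 224) and over 10 (220 to 316). Hmgb1 was flat up to 5 UMIs and higher above. Hmgn3 ranged from 75.4 to 98.5 CPM without order. Within the 195 Proliferative cells, the correlation over cells of Hmgb2 was 0.43 with the G2/M list and -0.45 with an S phase list. For Hmgb1 these were 0.30 and -0.29. The negative S phase values held only inside that cluster. In the 1197 P6 cells outside it, the S phase correlation was 0.38 for Hmgb2 and 0.13 for Hmgb1. All are from counts in the same thinned cells.

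**Figure D4:**
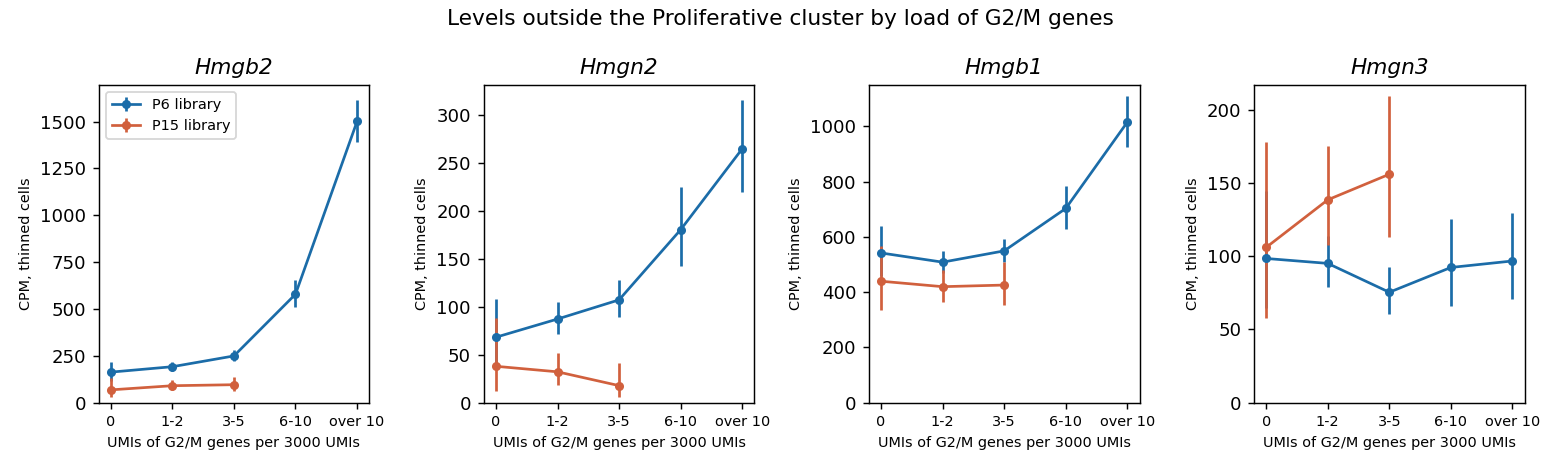
CPM of HMG genes in thinned cells outside the Proliferative cluster, grouped by the number of G2/M UMIs per cell, at P6 and P15, with 95% Poisson bars. At P6 Hmgb2 goes from 163 to 1501 CPM across the 5 groups, and at matched groups P15 cells lie lower for Hmgb2 and Hmgn2.

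The third comparison set P15 against P6 in cells that passed the exclusion criteria. Of 8 counted members 7 were at least 1.5-fold lower at P15 and 0 higher, against 11.8% of 10972 counted genes lower and 18.8% higher. The median ratio was 0.498 over the members and 1.09 over all counted genes, a log2 shift of 0.13 when well-counted genes set the scale. Hmgb2 stood at 127 CPM (119 to 136) at P15 and 611 CPM (594 to 629) at P6, a ratio of 0.208 (0.194 to 0.223). Hmgn2 followed at 38.7 and 149 CPM, a ratio of 0.259 (0.227 to 0.295).

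Hmga1 was lower at P15 with a ratio of 0.307 (0.2004 to 0.4598) on 32 and 108 UMIs. Hmgn5 (0.492, 0.423 to 0.570) and Hmgb3 (0.504, 0.454 to 0.557) were near each other. Hmgb1 (432 against 685 CPM, 0.631, 0.604 to 0.660) and Hmgn1 (257 against 401 CPM, 0.641, 0.605 to 0.678) differed least among those that were lower. Hmgn3 alone was above 1, at 132 against 93.5 CPM and a ratio of 1.41 (1.28 to 1.56), and it passed 1.5-fold when cells were thinned (1.54) or only labelled cells were used (1.56).

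Markers of other cells were higher at P15 in the same cells. The summed level of the 5 pericyte markers was 10.6 CPM at P6 and 264 CPM at P15, that of the 5 red cell markers 22.6 and 173, that of the 6 photoreceptor markers 16.2 and 66.2, and that of the glial markers 2.22 and 65.7. Hbb-bt and Neurod1 were at 0 because the exclusion criteria use them. In the P6 library, 44 barcodes with Neurod1 UMIs and no Cdh5 or Pecam1 UMI had 1480.0 CPM (1330 to 1643) of Hmgn1, 893 of Hmgn2 and 231 of Hmgn3. These 3 levels were above those of the cells that passed at either age. So were Hmgb3 (402 CPM), Hmga1 (50.3 CPM) and Hmgn5 (79.7 CPM), although the Hmgn5 interval (48.0 to 124) overlapped that of the P6 cells. Hmgb1 (600 CPM) and Hmgb2 (482 CPM) lay between the levels of the cells that passed at P15 and at P6. The P15 library had only 5 such barcodes, and 17 with any Neurod1 UMI. In those 17, Hmgn1 (1654 CPM), Hmgn2 (197 CPM) and Hmgn3 (160 CPM) were above the P15 cells that passed. The Hmgn3 interval (100 to 243) overlapped theirs. Hmgb1 (270 CPM, 190 to 372), Hmgb2 (117 CPM) and Hmgb3 (29.2 CPM, 7.94 to 74.6) were below those cells. Of these, only the Hmgb1 interval was separate. Hmga1 and Hmgn5 gave 0 UMIs (0 to 26.9 CPM). The part of such transcripts in the age ratios was not tested.

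The age difference was also taken among labelled cells alone, without the Proliferative cluster. With that cluster included, labelled cells gave a ratio of 0.249 for Hmgb2, 0.266 for Hmgn2 and 1.56 for Hmgn3. Without it (424 cells at P15, 1362 at P6), 6 of 8 counted members were lower and 1 higher, against 12.9% of 9982 counted genes lower and 18.3% higher. Hmgb2 was at 102 against 415 CPM, a ratio of 0.247 (0.213 to 0.284), and Hmgn2 at 29.0 against 126 CPM, a ratio of 0.230 (0.174 to 0.300). Hmgb1 stood at 0.700 (0.651 to 0.753), inside the 1.5-fold limit. Hmgn3 was at 142 against 93.5 CPM (1.52, 1.32 to 1.75), and scaling by the median gene (1.41) or leaving out mitochondrial and ribosomal UMIs (1.37) took it back inside the limit, so that the members split 6 lower and 0 higher.

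Within clusters, Hmgb2 and Hmgn2 were at least 1.5-fold lower at P15 in 6 of the 6 clusters that had enough cells at both ages. Of all counted genes, the share that much lower was 23.2% in Primitive, 14.8% in Stalk, 13.7% in Tip, 12.7% in Cap-Venous, 21.1% in Capillary and 12.7% in Cap-Arterial cells. The Hmgb2 ratio was 0.124 (0.0721 to 0.1999) in Primitive, 0.169 in Stalk, 0.188 in Capillary, 0.356 in Tip, 0.401 in Cap-Arterial and 0.424 (0.336 to 0.530) in Cap-Venous cells. The Hmgn2 ratio ran from 0.0942 (0.0193 to 0.279) in Primitive to 0.478 (0.207 to 0.979) in Cap-Arterial cells. In Primitive cells Hmgb2 stood at 1104 CPM at P6 and 137 CPM at P15, and the interval of its ratio overlapped those of Stalk (0.112 to 0.245) and Capillary cells (0.0848 to 0.363). Primitive cells were shallower at P15, with a median of 2704.5 UMIs against 5148. In the same cells the photoreceptor markers summed to 18.0 CPM at P6 and 452 CPM at P15. The pericyte markers summed to 1.06 and 234 CPM, all of it from Rgs5, with the other 4 at 0 at both ages. The part of these transcripts in the ratios was not tested.

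Hmgb1 was that much lower in 3 of 6 clusters (ratios 0.506 to 0.862), Hmgb3 in 3 of 6 (0.360 to 1.15), Hmgn1 in 4 of 6 (0.499 to 0.937) and Hmgn5 in 3 of the 4 in which it was counted. Hmgn3 ratios ran from 0.961 in Primitive to 2.01 (1.38 to 2.89) in Tip cells. The share of counted genes at least 1.5-fold higher was 21.6% in Primitive, 20.2% in Stalk, 16.4% in Tip, 17.6% in Cap-Venous, 16.2% in Capillary and 14.8% in Cap-Arterial cells. The intervals of Hmgn3 lay above 1 in Tip, Stalk (1.62) and Cap-Venous cells (1.61). Hmgn3 was therefore not lower past 1.5-fold in any of the 6 clusters.

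**Figure D5:**
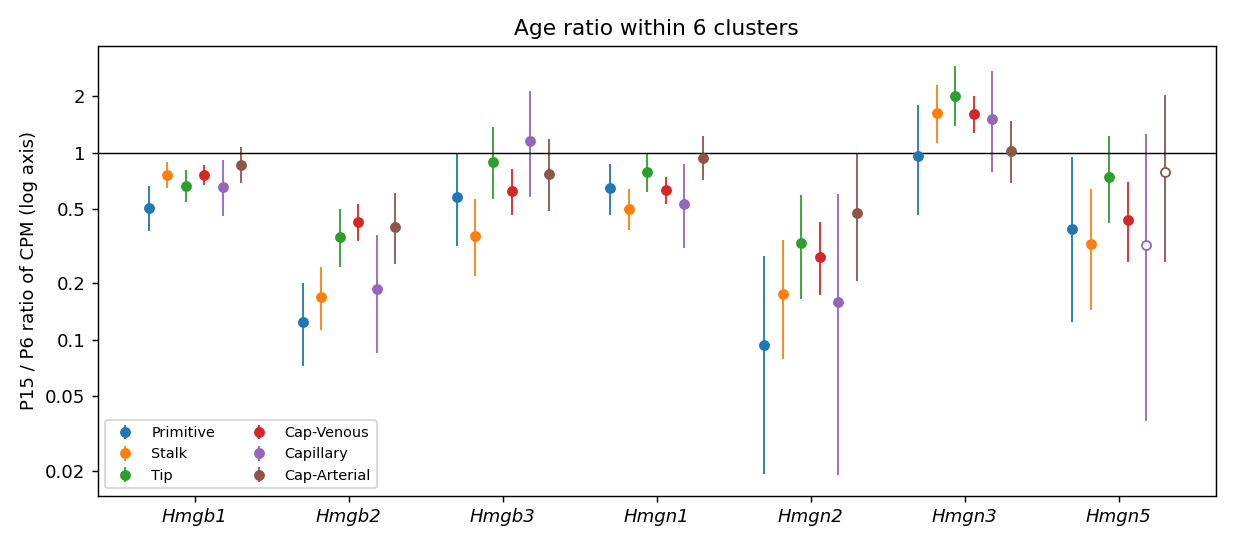
Ratio of P15 to P6 CPM (log axis) for the HMGB and HMGN genes within each of 6 clusters, with 95% counting intervals. Hmgb2 and Hmgn2 lie below 1 in all 6 clusters, and the intervals of Hmgn3 lie above 1 in Stalk, Tip and Cap-Venous cells.

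The age difference was also taken at a matched G2/M load, a comparison chosen after seeing the data. In thinned cells outside the Proliferative cluster with 0 to 2 G2/M UMIs (210 at P15, 505 at P6), 3 of 7 counted members were lower and 0 higher, against 10.6% of 5653 counted genes lower and 15.5% higher. Hmgb2 stood at 85.7 against 187 CPM (0.459, 0.336 to 0.616) and Hmgn2 at 33.3 against 83.8 CPM (0.398, 0.238 to 0.634). The third was Hmgn5, at 0.647 (0.380 to 1.06). Hmgb1 (0.824, 0.715 to 0.948), Hmgb3 (0.802) and Hmgn1 (0.897, 0.745 to 1.08) were inside the limit. Hmgn3 stood at 1.38 (1.04 to 1.82). With 3 to 5 G2/M UMIs (94 and 389 cells) the ratios were 0.384 for Hmgb2, 0.166 for Hmgn2 and 2.07 (1.41 to 3.004) for Hmgn3.

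Over cells, Hmgb2 and the G2/M load had a correlation of 0.57 in P6 cells outside the Proliferative cluster and of 0.04 in the P15 cells. The P15 cells spanned a narrower range, with only 5 cells above 5 G2/M UMIs. In their 3 lower groups Hmgb2 stood at 68.2, 90.4 and 95.7 CPM with overlapping intervals, and Hmgn2 at 37.9, 32.1 and 17.7 CPM.

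The share of labelled cells with at least 1 UMI followed the levels. It was 89.9% at P6 and 80.6% at P15 for Hmgb1, 68.9% and 35.2% for Hmgb2, 48.3% and 14.6% for Hmgn2, and 40.0% and 45.7% for Hmgn3. In cells thinned to 3000 UMIs the shares were 82.7% and 73.5% for Hmgb1, 59.1% and 24.9% for Hmgb2, 33.1% and 10.9% for Hmgn2, and 23.6% and 34.0% for Hmgn3. The thinned shares of Hmga1 were 4.53% and 1.56%. The median depth of labelled cells was 5363.5 UMIs at P6 and 4355.5 at P15. Transcripts that endothelial cells should lack were found in many of the same cells before thinning. At P15 these were the red cell markers in 57.3%, the pericyte markers in 27.2% and the photoreceptor markers in 24.0% of cells, and at P6 12.8%, 2.95% and 8.72%. Of the P15 shares before thinning, those of Hmgb1 and Hmgn1 (60.7%) lay above all 3, and none of the others is read as a share of expressing cells.

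The X-linked members were set against the sex of the cells, since the libraries differed in it. At P6, 267 labelled cells had Xist and no Y-linked UMIs and 385 had Y-linked and no Xist UMIs, while at P15 these were 19 and 213. Hmgn5 was lower in the P6 Xist cells, at 54.7 against 79.1 CPM (0.691, 0.534 to 0.889). Hmgb3 was level, with a ratio of 1.09 (0.934 to 1.28). Members that are not X-linked differed too, namely Hmgb2 at P6 (1.17, 1.08 to 1.26) and Hmgn3 at P15 (2.15, 1.36 to 3.28). The intervals of Hmgb2 at P15 and Hmgn3 at P6 included 1, as did those of Hmga1, Hmgb1, Hmgn1 and Hmgn2 at both ages. The part of sex in these differences was not tested. In cells with Y-linked and no Xist UMIs, outside the Proliferative cluster, the P15 to P6 ratio was 0.372 for Hmgn5, 0.638 for Hmgb3, 0.327 for Hmgb2, 0.235 for Hmgn2 and 1.40 for Hmgn3.

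Related chromatin genes were listed for reference. Of 12 counted genes with an HMG box or HMG-related domain outside the 3 families, 1 was higher and 1 lower in P6 Proliferative cells, with a median ratio of 1.02. The higher gene was Ssrp1, a subunit of the FACT histone chaperone, at 1.93 (1.69 to 2.20), and the next was Hmgxb4 at 1.25. The lowest were Tox (0.362), a nuclear factor best known from T cells, and Cic (0.685), a transcriptional repressor. Between ages, 1 of 13 was higher at P15 and 1 lower. Tox (0.507) was the lower one, followed by the mitochondrial factor Tfam (0.789), and the HMG-box factor Bbx (1.45) lay inside the limit.

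The linker histones, which compete with HMGN proteins, were higher in P6 Proliferative cells for 5 of 5 counted genes. Hist1h1b (8.30) and Hist1h1e (5.89) had the largest ratios, and Hist1h1c (2.13) and H1f0 (2.15) the smallest. At P15, Hist1h1b (0.0437) and Hist1h1e (0.224) were among 3 of 5 that were lower than at P6, while Hist1h1c (2.005) was higher and H1f0 (1.07) level. Transcripts of most histone genes lack a poly(A) tail and may be captured poorly.

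Histone chaperones were higher in P6 Proliferative cells for 7 of 13 counted genes and lower for 0. Asf1b (5.35), a chaperone of histones H3 and H4, and Anp32e (3.05), which acts on the variant H2A.Z, were highest and Nap1l4 (1.01) and Anp32a (1.13) lowest. At P15, 9 of 13 were lower and 0 higher, from Asf1b (0.0688) and Chaf1b (0.120), a subunit of the chromatin assembly factor CAF-1, to Asf1a (1.12) and Anp32a (1.20).

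Receptors and partners of extracellular Hmgb1 ran differently. In P6 Proliferative cells 3 of 4 counted genes were lower and 0 higher. These were the chemokine Cxcl12 (2.99 against 99.4 CPM, ratio 0.0300), Cd24a (0.0665) and the receptor Cxcr4 (0.236), with Tlr4 level at 1.14 (0.531 to 2.23). Ager, which encodes the receptor RAGE, gave 3 and 19 UMIs and was not counted. At P15 Cxcl12 was higher (675 against 97.5 CPM, 6.92, 6.41 to 7.48), and Cxcr4 (0.428) and Tlr4 (0.610) were lower. Of the genes tied to Hmga2 through let-7, Lin28a gave 0 UMIs and Lin28b 0 and 6 at P6, while Igf2bp3 (0.961) and Dicer1 (1.17) were level.

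For scale, 39 of 41 counted S phase genes and 51 of 51 counted G2/M genes were higher in P6 Proliferative cells, from Ubr7 (0.9495) to Brip1 (9.08) and E2f8 (12.1) in the first list. In the second they ran from Ctcf (1.57) and Lbr (1.94) to Cenpe (14.8) and Hmmr (15.9). Between ages, 33 of 40 and 45 of 51 were lower at P15 and 0 higher.

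The genes most like each member were ranked by the correlation of log2 level over the 9 P6 clusters, among 5871 genes. The 9 points share 1 library, and clusters with more cell cycle transcripts move many genes at once. For Hmgb2 the first were Cks2, a cyclin-dependent kinase subunit, Lmnb1, a nuclear lamin, and Tuba1b, an alpha tubulin (0.995, 0.989 and 0.987). For Hmgb1 they were Rsl1d1, the histone variant gene H2afz and Hmgb2 (0.992, 0.992 and 0.980). Hmgn2 was most like Nudcd2, Npm1 and Hnrnpa2b1 (0.987, 0.983 and 0.980), and Hmgn1 like Fbl, the nucleolar fibrillarin, Mrpl51 and Mrpl2 (0.977, 0.965 and 0.965). Hmgb3 was most like Lsm5, Pold2 and Nudt21 (0.952, 0.947 and 0.945), Hmgn5 like Cda, Hspa9 and 2810025M15Rik (0.986, 0.981 and 0.971) and Hmgn3 like Azin1, Ikbkb and Tm4sf1 (0.980, 0.973 and 0.966). Over the 6 clusters with enough P15 cells the same pairs had correlations from -0.662 to 0.731 at P15 and from 0.861 to 0.998 at P6. The pairs were chosen by their P6 values, so the P6 and P15 ranges are not a comparison of the ages.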

How the data were processed

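The authors deposited 1 table of raw counts per library, with whole-number UMI counts for each gene and cell barcode. The submitters' processing notes name Seurat 3.0 and mm10, and the aligner and annotation are not given in the sources used here. Gene identifiers were paired with symbols through the GENCODE annotation of GRCm38 without version numbers. Cluster names came from the study's sheet of scored cells, where Primordial stands for Primitive and Primordial-Proliferative for Proliferative. The study's exclusion criteria were applied as 200 to 3500 genes, no more than 5% of UMIs from mitochondria, and absence of Hbb-bt, Cd63 and Neurod1. Doublets were not called. P6 and P15 depth is given in the report.

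UMIs were summed per group in Python 3.11.15 with numpy 2.4.6, scipy 1.17.1 and pandas 2.3.3. Intervals (95%) were exact Poisson for levels, Clopper-Pearson for shares and conditional binomial for ratios, and cover counting error only. Cells were thinned to 3000 UMIs by drawing without replacement, which left out 168 labelled P6 and 117 labelled P15 cells that were shallower. Unlabelled P15 cells were labelled, as an alternative, from 15 nearest neighbours on 13 components (scikit-learn 1.9.0) with the members left out. The ratio step was run on simulated counts with Poisson error alone, so that run does not cover the spread between cells.

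The members and lists were chosen with earlier results of these data known. Named list genes are the 2 highest and 2 lowest ratios of counted genes, and 3 genes are named as most like each member, on log2(CPM + 1) with at least 200 UMIs. Some genes that this rule named are not reported here. The other named list genes (Ager, Lin28a, Lin28b) and the Neurod1 barcodes were singled out after seeing their values. Protein sequences were not used here. Alternatives were thinning, equal weight of cells, median-ratio scaling, other denominators, minimums and cell sets.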

Additional observations from a re-analysis of the deposited data

How the results depend on the processing

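No ratio of an HMG gene past 1.5-fold turned its direction under the alternatives run. The Hmgn3 ratio in P6 Proliferative cells was 1.14 after thinning, against 0.945, in P15 Proliferative cells 0.909 without the deepest 5% of cells, against 1.29, and in Primitive cells 1.19 under median-ratio scaling, against 0.986. Counts of members past 1.5-fold moved by over 1.5 times in these cases. In P15 Proliferative cells the count of higher members was 3 at a minimum of 200 UMIs, against 6, because fewer members reached the minimum. For P15 against P6 the count of higher members was 1 after thinning and 1 in labelled cells, against 0. Outside the Proliferative cluster that count was 0 under median-ratio scaling, 0 without mitochondrial and ribosomal UMIs, 0 with predicted labels and 0 in cells with Y-linked and no Xist UMIs, against 1. The gene was Hmgn3 in each of these, with ratios of 1.54 and 1.56, then 1.41, 1.37, 1.42 and 1.40, and the cause was not tested. Predicted labels gave a P15 Hmgb2 ratio of 16.1 in Proliferative cells and thinning gave 19.5, against 13.6. Of labelled cells, the prediction matched the study's name for 71.3% at P6 and 75.6% at P15. Alternatives on copies, Y-linked cells, doublets and matched G2/M load were chosen after seeing the data. No paired analysis was possible because each age is 1 library. Depth limits Hmga2, Hmga1 at P15 and the 14 labelled P15 Proliferative cells, and the median of well-counted genes in Primitive cells was shifted by -0.28 on the log2 scale.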
